A study of Homo sapiens with 6 samples.

Results

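The measurements concern 33 genes of glycolysis and of the response to hypoxia-inducible factor (HIF), chosen by name: the enzymes that turn glucose into lactate, the carriers that bring glucose in and take lactate out, the HIF alpha subunits and their oxygen sensors, and genes known as HIF targets. A probe carried the symbol of 30 of them, 1 probe each, out of 17687 named genes on the array. PFKFB4, SLC16A3 and CA9 had no named probe here and were not analysed. RNA of 6 transfected cultures of human ovarian cancer lines was hybridised to 1 Affymetrix Clariom S array each. RMG1, a widely used clear cell carcinoma line, received siCPNE8 #A, siCPNE8 #B or siControl, and OVCAR3, a widely used line of high-grade serous carcinoma, received siBHLHE41 #A, siBHLHE41 #B or siControl. The siRNAs #A and #B are different siRNAs against the same gene, siControl is a control siRNA, and all 6 arrays carry a transfection. Each histotype is therefore represented by 1 cell line, and the 3 arrays of a line are 3 different transfections and not repeats of 1 treatment. The lines were kept in different media, DMEM and RPMI, which the deposited labels and the study's methods assign in opposite ways, so line and medium cannot be told apart.

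In glycolysis, hexokinase traps glucose in the cell, phosphofructokinase commits it to breakdown, and the lower enzymes yield ATP and pyruvate, which lactate dehydrogenase reduces to lactate. HIF is a transcription factor of an alpha subunit (HIF-1alpha from HIF1A, HIF-2alpha from EPAS1) and a constant beta subunit. With oxygen present, prolyl hydroxylases of the EGLN family mark the alpha subunit for destruction, so HIF activity is set largely at the level of protein, which these arrays do not measure. Low oxygen stabilises it, and it binds the letters ACGTG or GCGTG before many glycolytic genes. Ovarian clear cell carcinoma is known for cytoplasm rich in glycogen.

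The stretches before the transcription start of some members are shown because they carry those letters, and because the E-box CACGTG, which BHLHE41 and its relative BHLHE40 are known to bind as repressors, contains ACGTG on both strands. They were taken from RefSeq (GRCh38.p14), run 5′ to 3′ on the gene's strand, and have each ACGTG or GCGTG of either strand in capitals (CACGT or CACGC where the match lies on the other strand, CACGTG where both strands match). HK2, hexokinase 2, is given for the 250 bases at chr2:74834920-74835169, plus strand. LDHA, lactate dehydrogenase A, is given for the 250 bases at chr11:18394313-18394562, plus strand.
HK2: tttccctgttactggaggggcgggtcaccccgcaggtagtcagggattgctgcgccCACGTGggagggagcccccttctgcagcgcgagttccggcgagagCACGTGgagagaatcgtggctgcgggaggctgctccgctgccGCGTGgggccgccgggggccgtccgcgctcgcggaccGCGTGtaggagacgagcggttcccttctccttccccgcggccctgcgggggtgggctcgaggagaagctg
LDHA: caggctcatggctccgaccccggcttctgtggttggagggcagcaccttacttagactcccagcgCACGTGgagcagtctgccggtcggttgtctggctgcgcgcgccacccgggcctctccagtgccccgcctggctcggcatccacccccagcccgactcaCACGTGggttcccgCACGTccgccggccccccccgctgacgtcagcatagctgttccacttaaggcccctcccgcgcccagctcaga
Shorter stretches follow for GAPDH (chr12:6535144-6535223, plus strand), EGLN1 (chr1:231422288-231422347, minus strand), PGK1 (chrX:78104018-78104087, plus strand) and P4HA1 (chr10:73096917-73096986, minus strand), to show the letters before a gene not called between the lines (GAPDH), one higher in RMG1 (EGLN1) and those lower in RMG1 (PGK1 and P4HA1).
GAPDH: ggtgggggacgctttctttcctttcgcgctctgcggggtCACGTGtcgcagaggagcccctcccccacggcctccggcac
EGLN1: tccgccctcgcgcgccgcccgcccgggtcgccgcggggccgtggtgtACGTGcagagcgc
PGK1: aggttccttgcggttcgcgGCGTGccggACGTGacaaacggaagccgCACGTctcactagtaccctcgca
P4HA1: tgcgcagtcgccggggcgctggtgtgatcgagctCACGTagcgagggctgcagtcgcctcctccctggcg

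Of the 33 members, 30 had at least 1 start in the promoter table, with 57 starts in all. NDRG1, SLC2A3 and VEGFA are the members without an entry. In the 250 bases before the start, searched on both strands, ACGTG or GCGTG stood in 34 of these 57 promoters (59.6%), against 43.2% of all 35116 promoters in the table. CACGTG stood in 7 of the 57 (12.3%), against 6.34% of all promoters, before ALDOA, ALDOC, ANKRD37, GAPDH, HK2, LDHA and PFKFB3. ACGTG or GCGTG stood before 7 of the 9 members with a promoter entry that were higher in RMG1, before 4 of the 4 that were lower and before 12 of the 14 that were not called, against 47.4% of the 27305 genes in the table. These are counts per gene, and a gene with more starts has more chances of a match. The members had 57 starts for 30 genes, against 35116 for 27305 in the table, so the shares per promoter are the closer comparison. A match is a description of the letters and not of a bound site, and the difference in shares was not tested.

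The deposited values are log2 levels, so a difference of 1 is a doubling. The level below which 95% of the 612 negative control probes lay was taken here as background. It was between 7.86 and 8.47, and 37.2% to 41.2% of the 21448 transcript probes lay above it in an array. Arrays of 1 line correlated with r between 0.990 and 0.993 over the transcript probes, and arrays of different lines with r between 0.920 and 0.928. The highest values, between 17.73 and 18.35, exceed what a scanner of this type can give on a log2 scale, so a rescaling that no source used here describes may have stretched or shrunk every ratio. The targets had fallen where they were targeted: CPNE8 stood at ratios of 0.117 and 0.278 to siControl with siCPNE8 #A and #B, and BHLHE41 at 0.350 and 0.542 with siBHLHE41 #A and #B. Of the epithelial markers, 7 of 8 were above background in all 6 arrays, while 10 of 10 leukocyte markers, 7 of 8 fibroblast markers (COL1A2 was the exception) and 6 of 7 endothelial markers (ERG was the exception, in OVCAR3) were above it in none. Of the clear cell markers, 4 of 8 were higher in RMG1, CPNE8 itself among them, and none lower, and of the serous markers 6 of 10 were lower in RMG1 and 2 higher. The listed clear cell markers include CPNE8, FUT4 and RXFP1, and the serous markers BHLHE41 and NOL4L. The study picked these genes partly for their difference between these same lines, so their direction is no independent check. CPNE8 and BHLHE41 are also the knockdown targets.

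RMG1 and OVCAR3 differed at some steps of the pathway and not detectably at others, and in both directions. RMG1 had more mRNA of the HIF alpha subunit EPAS1, the oxygen sensor EGLN1, the glucose carrier SLC2A1, the platelet-type phosphofructokinase PFKP and PGAM1, and less of PFKL, PGK1 and the collagen hydroxylase subunit P4HA1. The differences of HIF1A and GAPDH lay close to 0. With limma over the 3 arrays of each line and Benjamini-Hochberg adjustment over 21448 probes, 11 of the 30 members were higher in RMG1 and 5 were lower at an adjusted p under 0.05. Of all transcript probes, 17.8% were higher, 19.2% lower and 37.0% either, and of the 10007 probes above background in at least 1 array 58.9% were called. Of the 26 members above background in at least 1 array, 13 were called (50%), a share not above that of the probes. The levels of the lines did not overlap for 25 of the 30 members, against 48.4% of all probes. That share includes probes above background in no array. It was not taken over the 10007 probes, so no excess among the members is read from it. The median absolute difference was 0.99 over the members, against 0.40 over all transcript probes and 0.74 over those above background. Where a cell holds less RNA of a gene and where fewer cells express it cannot be told apart in RNA of whole cultures.

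**Figure D1:**
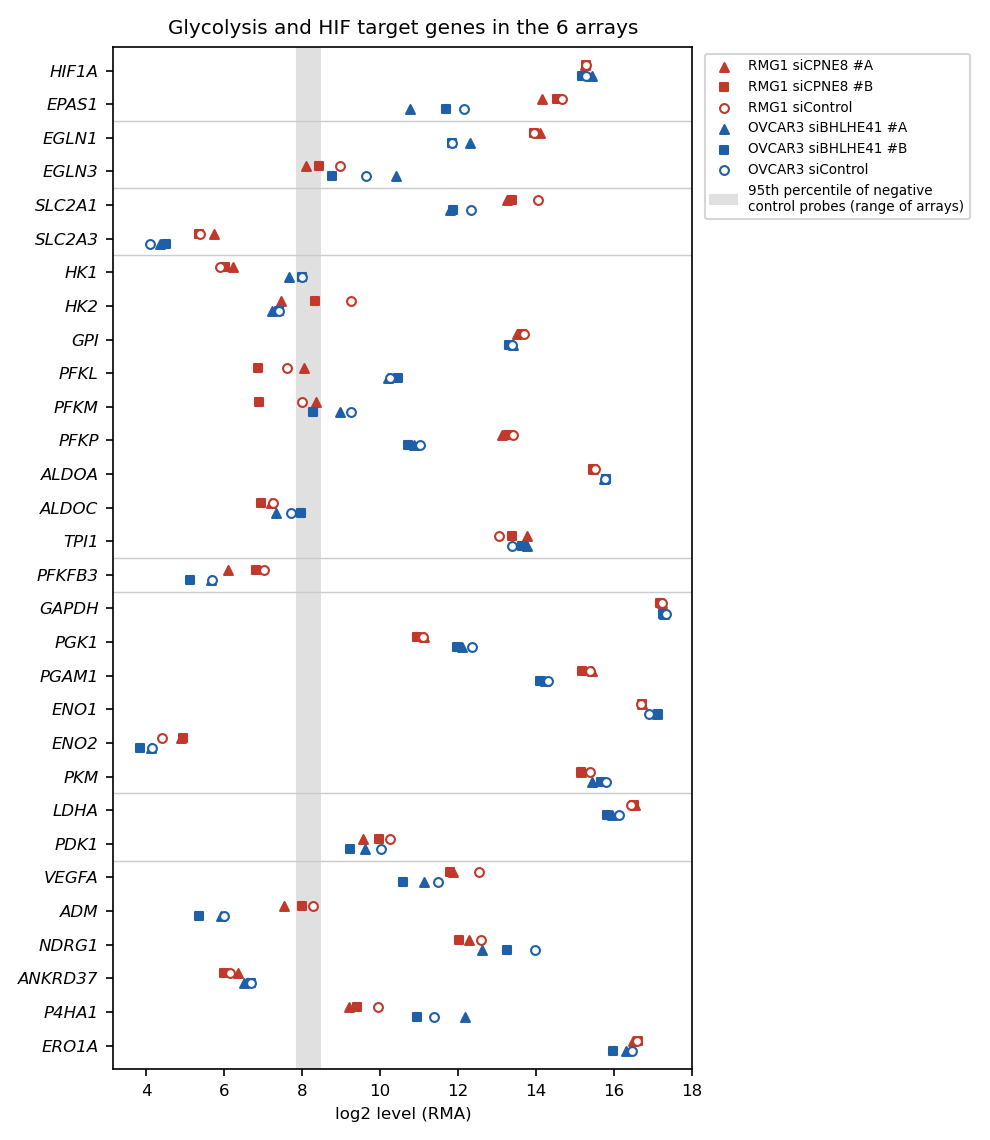
Log2 level of the 30 measured members (rows, grouped by role) in the 6 arrays, RMG1 in red above OVCAR3 in blue; open circles are siControl, triangles siRNA #A and squares siRNA #B, and the grey band is the range of the background over arrays, 7.86 to 8.47. SLC2A3, PFKFB3, ENO2 and ANKRD37 lie left of the band in every array, and 20 members lie above background in all 6.

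The alpha subunits of HIF differed from each other in this comparison. In what follows, the 3 values of a line are given in the order #A, #B, siControl. EPAS1, which encodes HIF-2alpha, had log2 levels of 14.15, 14.53 and 14.66 in RMG1, against 10.78, 11.69 and 12.16 in OVCAR3. The lowest RMG1 array thus stood well above the highest OVCAR3 array, and the mean was 14.45 ± 0.27 in RMG1 and 11.54 ± 0.70 in OVCAR3 (SD, n = 3 arrays each). The difference was 2.90 (95% interval 2.16 to 3.64), 7.48-fold, with an adjusted p of 1.25e-04 from limma. HIF1A, which encodes HIF-1alpha, had levels of 15.26, 15.28 and 15.27 in RMG1, against 15.42, 15.17 and 15.28 in OVCAR3. The ranges overlapped, the difference was -0.02 (95% interval -0.37 to 0.34) and the adjusted p from limma was 0.944. A difference in HIF1A mRNA of more than about 0.37 in either direction therefore lay outside the interval, while its sign changed with the centring of the arrays (0.05 with each array centred on its median).

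The oxygen sensors went opposite ways in their mean values, and the test called EGLN1 alone. EGLN1, the main prolyl hydroxylase that marks HIF alpha subunits, had levels of 14.11, 13.95 and 13.95 in RMG1, against 12.31, 11.84 and 11.84 in OVCAR3. All RMG1 arrays were higher, by 2.01 on average (95% interval 1.59 to 2.43), 4.02-fold, with an adjusted p of 3.75e-05 from limma. EGLN3, a hydroxylase of the same family and itself a known HIF target, had levels of 8.11, 8.43 and 8.97 in RMG1, against 10.40, 8.78 and 9.63 in OVCAR3. The lines overlapped because OVCAR3 with siBHLHE41 #B stood below RMG1 with siControl, and the difference of -1.10 (95% interval -1.98 to -0.23) missed the threshold at an adjusted p of 0.0512 from limma. Without that OVCAR3 array the difference was -1.51 with an adjusted p of 0.00761, and without the RMG1 siControl array -1.34 with 0.0386.

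The glucose carrier SLC2A1 (GLUT1), a known HIF target, had levels of 13.24, 13.38 and 14.04 in RMG1, against 11.79, 11.88 and 12.32 in OVCAR3. It was higher in every RMG1 array, by 1.56 (95% interval 0.997 to 2.12), 2.95-fold, with an adjusted p of 9.80e-04 from limma. In both lines siControl was the highest of the 3 arrays. SLC2A3 (GLUT3) was above background in no array, with values between 5.35 and 5.73 in RMG1 and between 4.09 and 4.52 in OVCAR3. The fit called this dim difference higher in RMG1 at an adjusted p of 0.00117, and no fold is given for it.

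The hexokinases, which phosphorylate glucose on entry, both stood near background. HK2, the hexokinase known as a HIF target and whose E-boxes are shown above, had levels of 7.45, 8.32 and 9.25 in RMG1, against 7.22, 7.396 and 7.41 in OVCAR3. Only RMG1 with siControl and with siCPNE8 #B was above background. The spread within RMG1 (SD 0.90, n = 3) was about as large as the difference of 0.999 (95% interval 0.14 to 1.86, adjusted p of 0.0697 from limma). That difference includes RMG1 with siCPNE8 #A and all of OVCAR3 at background, so no fold is given. The fit called HK2 higher in RMG1 without the siCPNE8 #A array, with an adjusted p of 0.00498, and between the siControl arrays in the fit of 4 groups, with 0.0346, in both cases against OVCAR3 at background. HK1, the hexokinase of most tissues, had levels of 6.24, 6.02 and 5.89 in RMG1, against 7.68, 7.99 and 8.002 in OVCAR3. It was above background in no RMG1 array and in 1 OVCAR3 array, so that no fold can be given, and the fit called it lower in RMG1 at an adjusted p of 5.09e-05.

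The genes of phosphofructokinase differed in opposite directions. PFKP, the platelet-type subunit, had levels of 13.13, 13.27 and 13.42 in RMG1, against 10.87, 10.71 and 11.02 in OVCAR3. The arrays of each line lay close together, and the difference of 2.41 (95% interval 2.02 to 2.79), 5.31-fold, had an adjusted p of 7.18e-06 from limma. PFKL, the liver-type subunit, had levels of 8.05, 6.87 and 7.62 in RMG1, against 10.20, 10.45 and 10.25 in OVCAR3. It was above background in 1 of 3 RMG1 arrays and in all of OVCAR3, and the fit called it lower in RMG1 with an adjusted p of 6.00e-05. The fitted difference of -2.79 (95% interval -3.42 to -2.16) includes the RMG1 arrays at background, so no fold is given. PFKM, the muscle-type subunit, had levels of 8.35, 6.90 and 7.99 in RMG1, against 8.97, 8.29 and 9.25 in OVCAR3. The ranges overlapped in 1 pair of arrays, and the difference of -1.09 (95% interval -1.94 to -0.23) had an adjusted p of 0.0506 from limma, which became 0.0243 without the siCPNE8 #A array and 0.0303 without the siBHLHE41 #B array. PFKFB3, whose product makes the activator of phosphofructokinase, was above background in no array (6.11 to 7.03 in RMG1, 5.14 to 5.68 in OVCAR3), and the fit called it higher in RMG1 at an adjusted p of 0.00779.

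**Figure D2:**
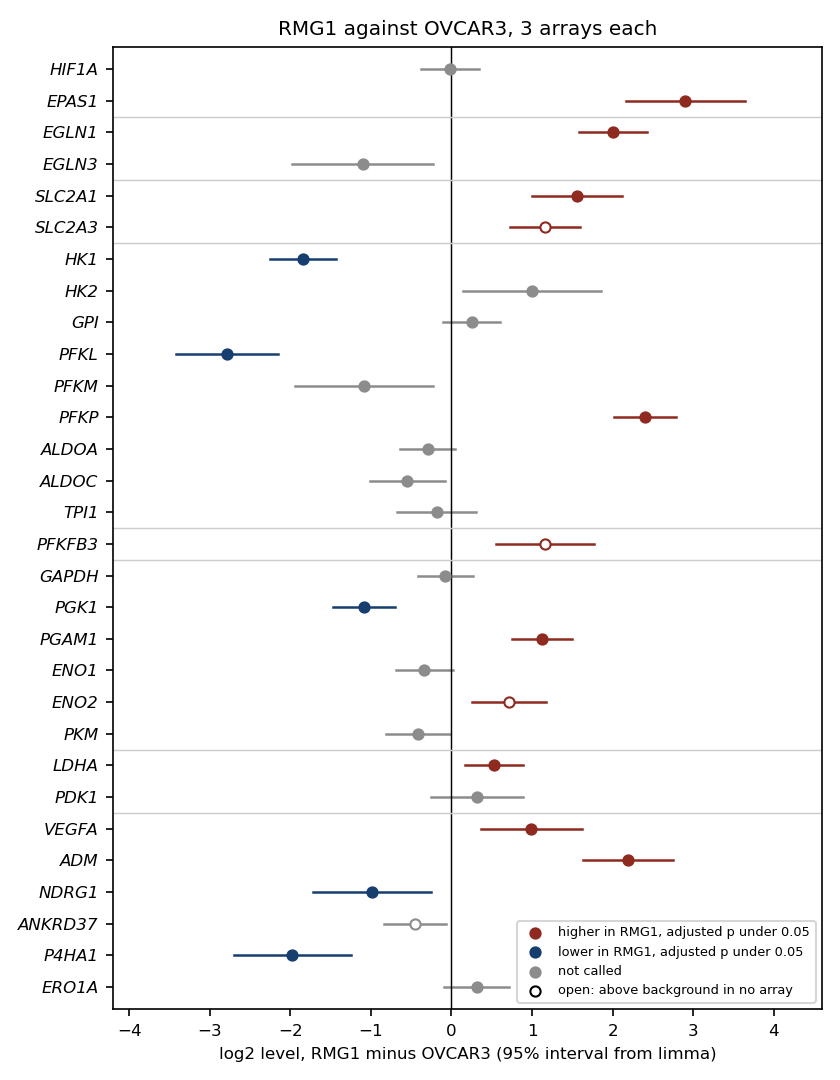
Difference in log2 level, RMG1 minus OVCAR3, of each measured member with its 95% interval from limma (3 arrays per line); red is higher and blue lower at an adjusted p under 0.05, grey is not called, and open circles mark the 4 genes above background in no array. EPAS1 (2.90) and PFKP (2.41) lie farthest right and PFKL (-2.79) farthest left, with HIF1A and GAPDH close to 0.

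The other upper enzymes differed by less than 0.6 and none was called. GPI, which isomerises glucose 6-phosphate, differed by 0.25 (95% interval -0.10 to 0.60, adjusted p of 0.255 from limma), with all RMG1 arrays higher. ALDOA, the main aldolase, differed by -0.29 (95% interval -0.63 to 0.05), with levels of 15.45 to 15.52 in RMG1 and 15.74 to 15.80 in OVCAR3. ALDOC, the brain-type aldolase, was above background in 1 of the 6 arrays and differed by -0.55. TPI1, which interconverts the triose phosphates, differed by -0.18 (95% interval -0.68 to 0.31), and its levels overlapped, 13.06 to 13.77 in RMG1 and 13.37 to 13.76 in OVCAR3.

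Further down the pathway, 2 neighbouring steps differed in opposite directions. PGK1, which makes the first ATP of the pathway, had levels of 11.13, 10.96 and 11.10 in RMG1, against 12.10, 11.98 and 12.35 in OVCAR3. It was lower in every RMG1 array, by 1.08 (95% interval of the difference -1.47 to -0.70), 2.12-fold, with an adjusted p of 8.90e-04 from limma. PGAM1, the mutase that acts on the product of PGK1, had levels of 15.43, 15.17 and 15.39 in RMG1, against 14.23, 14.10 and 14.31 in OVCAR3. It was higher in every RMG1 array, by 1.12 (95% interval 0.75 to 1.49), 2.17-fold, with an adjusted p of 6.11e-04. GAPDH, often used as a reference gene, had levels of 17.24, 17.17 and 17.24 in RMG1, against 17.28, 17.27 and 17.34 in OVCAR3. These values lie near the top of the scale, and the difference of -0.08 (95% interval -0.42 to 0.26) had an adjusted p of 0.735. ENO1, the main enolase, differed by -0.34 (95% interval -0.69 to 0.02), and PKM, pyruvate kinase, by -0.41 (95% interval -0.81 to -0.02), with adjusted p-values of 0.129 and 0.0968 from limma. ENO1, PKM and ALDOA did not overlap between the lines and were called lower in RMG1 only when the variance was modelled with a trend. ENO2, the neuronal enolase, was above background in no array (4.40 to 4.96 in RMG1, 3.83 to 4.14 in OVCAR3) and was called higher in RMG1 at an adjusted p of 0.0209, a call lost without siCPNE8 #A (0.0638), without siCPNE8 #B (0.0771) or without siBHLHE41 #B (0.0746).

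At the end of the pathway, LDHA, which turns pyruvate into lactate, had levels of 16.54, 16.51 and 16.43 in RMG1, against 15.95, 15.83 and 16.12 in OVCAR3. The arrays did not overlap and the difference was 0.53 (95% interval 0.16 to 0.89), 1.44-fold, with an adjusted p of 0.0293 from limma. This call rested on all arrays together: leaving out any 1 array except OVCAR3 with siControl brought the adjusted p to between 0.0556 and 0.0971. PDK1, which switches off pyruvate dehydrogenase and is a known HIF target, had levels of 9.56, 9.98 and 10.24 in RMG1, against 9.60, 9.22 and 10.02 in OVCAR3. The lines overlapped, with a difference of 0.32 (95% interval -0.25 to 0.88) and an adjusted p of 0.383.

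The remaining HIF targets did not share a direction. VEGFA, the growth factor of blood vessels, had levels of 11.86, 11.80 and 12.53 in RMG1, against 11.14, 10.59 and 11.49 in OVCAR3. It was higher in every RMG1 array, by 0.99 (95% interval 0.36 to 1.62), 1.99-fold, with an adjusted p of 0.0202 from limma, which became 0.0671 without the RMG1 siControl array and 0.0676 without the siBHLHE41 #B array. ADM, which encodes the vasodilator peptide adrenomedullin, had levels of 7.54, 8.002 and 8.29 in RMG1, against 5.91, 5.35 and 6.0002 in OVCAR3. It was above background in 2 RMG1 arrays and in no OVCAR3 array, the fit called it higher in RMG1 at an adjusted p of 1.30e-04, and against the background of OVCAR3 no fold above 1 can be stated. P4HA1, the catalytic subunit of collagen prolyl hydroxylase, had levels of 9.21, 9.41 and 9.96 in RMG1, against 12.18, 10.94 and 11.39 in OVCAR3. It was lower in every RMG1 array, by 1.98 (95% interval of the difference -2.70 to -1.25), 3.94-fold, with an adjusted p of 0.00110. NDRG1, a gene regulated by hypoxia and differentiation, had levels of 12.28, 12.02 and 12.58 in RMG1, against 12.61, 13.25 and 13.98 in OVCAR3. It was lower in RMG1 by 0.99 (95% interval of the difference -1.72 to -0.26), 1.98-fold, with an adjusted p of 0.0390, but the lowest OVCAR3 array stood only just above the highest RMG1 array. That call was lost without siCPNE8 #A (0.0872), siCPNE8 #B (0.126), OVCAR3 siControl (0.107) or siBHLHE41 #B (0.0836). ERO1A, an oxidase of the endoplasmic reticulum, differed by 0.31 (95% interval -0.09 to 0.72), and ANKRD37, an ankyrin repeat gene, was above background in no array.

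Because the arrays of a line hold knockdowns, the siControl arrays were also set against each other in the fit of 4 groups, where 16.1% of all probes were called. This sets 1 array against 1 array, with the error taken from the #A and #B pairs alone, and it uses arrays that the first comparison also used, so it is no independent support. EPAS1, EGLN1, SLC2A1, PFKP and ADM were called higher in RMG1, with HK2 and the dim SLC2A3, and PFKL, PGK1 and the dim HK1 were called lower. The differences between the siControl arrays were 2.50 for EPAS1, 2.11 for EGLN1, 1.72 for SLC2A1, 2.40 for PFKP and -1.25 for PGK1. P4HA1 differed by -1.43 with an adjusted p of 0.143, PGAM1 by 1.07 with 0.0614 and VEGFA by 1.04 with 0.104. Of the 16 members called over all arrays, 9 kept their call and direction under every alternative and every left-out array: EPAS1, EGLN1, SLC2A1, PFKP, ADM, PFKL and PGK1 and the dim SLC2A3 and HK1. SLC2A3 had no value where dim probes were left out.

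**Figure D3:**
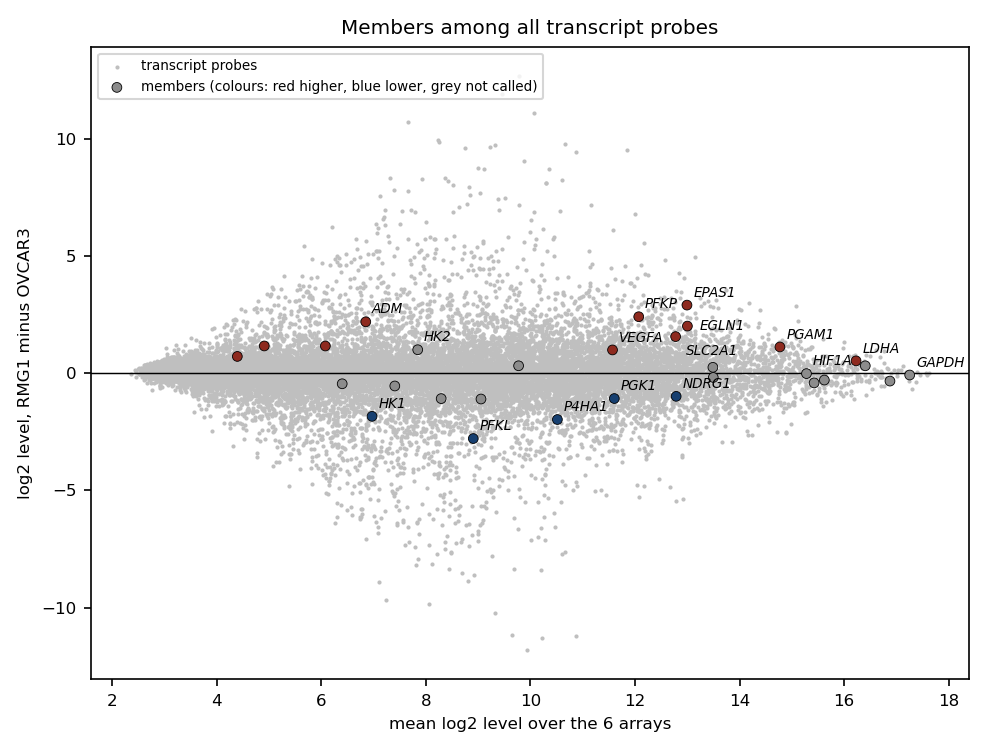
Difference in log2 level, RMG1 minus OVCAR3, against the mean log2 level over the 6 arrays for the 21448 transcript probes (grey dots) and the 30 members (large points; red higher, blue lower, grey not called), 16 of them labelled. The members spread over the whole range of levels, and many other probes differ by more than any member, whose differences run from -2.79 to 2.90.

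The same comparison over other genes of glucose metabolism and of the HIF pathway set the members in context. Of 17 other measured glycolytic enzymes and isoforms, 1 was higher in RMG1, 4 were lower and 11 were above background in no array, with a median difference of -0.29 against 0.03 over all transcript probes. BPGM, which makes 2,3-bisphosphoglycerate, and MINPP1, a phosphatase of that compound, were lower in RMG1 by 1.61 and 1.59. TIGAR, which removes the activator of phosphofructokinase, was above background in no RMG1 array and at least 1.55-fold lower in RMG1 (adjusted p of 0.00542 from limma), and PGAM5, a mitochondrial phosphatase despite its name, was higher by 1.18. Of 13 other glucose and lactate carriers, 2 were higher, both dim, and 5 were lower. SLC2A12, the carrier GLUT12, had levels of 8.55, 8.40 and 7.97 in RMG1, against 13.14, 13.94 and 12.86 in OVCAR3, and was above background in 2 of 3 RMG1 arrays. EMB and BSG, which escort lactate carriers to the membrane, were called lower, BSG by 0.68. EMB and the lactate carrier SLC16A7 were each called lower from 1 OVCAR3 array above background, so no fold is given for them.

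All 12 measured genes of pyruvate dehydrogenase and its regulators passed the test, 7 higher and 5 lower in RMG1, against 37.0% of all probes and 58.9% of those above background, and 1 of the 12 was above background in no array. PDP1, the phosphatase that activates the complex, was lower in RMG1 by 3.32, 9.99-fold, with levels of 9.73 to 10.34 in RMG1 and 13.11 to 13.57 in OVCAR3. PDK3, a kinase that inactivates it, was at least 1.75-fold higher in RMG1, with OVCAR3 not above background. DLAT, a core subunit, was called higher with 1 of 3 OVCAR3 arrays above background, and MPC2, part of the mitochondrial pyruvate carrier, was higher by 1.47. Of the genes of glycogen metabolism, 8 of 21 were higher and 5 lower. PYGL, the liver-type glycogen phosphorylase, had levels of 12.22, 12.38 and 12.26 in RMG1, against 7.44, 7.63 and 7.16 in OVCAR3, and was at least 16.9-fold higher with an adjusted p of 1.93e-07 from limma. PPP1R3B, which directs a phosphatase to glycogen, was at least 4.09-fold higher, while PYGB, the brain-type phosphorylase, was at least 3.33-fold lower. GYG2, a glycogenin, was called lower with RMG1 at background and 1 OVCAR3 array above it.

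In gluconeogenesis 2 of 9 genes were higher and 1, the dim PC, was lower: G6PC3, a glucose 6-phosphatase of most tissues, was higher by 2.75, 6.72-fold, and SLC37A4, its carrier, by 1.18. In the pentose phosphate pathway 2 of 8 were higher and 1 was lower. RPIA was at least 1.52-fold higher and TALDO1, the transaldolase, was higher by 1.95, while PGD, an enzyme of the branch that yields NADPH, was lower by 2.16, and RPE differed by -0.48 (adjusted p of 0.0954). Of 15 regulators of HIF, 2 were higher and 4 lower. SIAH2, a ubiquitin ligase that acts on the oxygen sensors, was lower by 1.39, OS9 by 1.19 and HIF1AN, which blocks HIF through another hydroxylation, by 0.73, while RBX1, a subunit of the ligase that degrades HIF alpha, was higher by 0.93. Among 53 further HIF targets, 12 were higher and 15 lower, with a median difference of 0.20. STC1, a secreted glycoprotein, was at least 8.47-fold higher, MET, the receptor of hepatocyte growth factor, was higher by 4.62, PLIN2, a coat protein of lipid droplets, by 2.76 and VLDLR, a lipoprotein receptor, by 2.58.

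**Figure D4:**
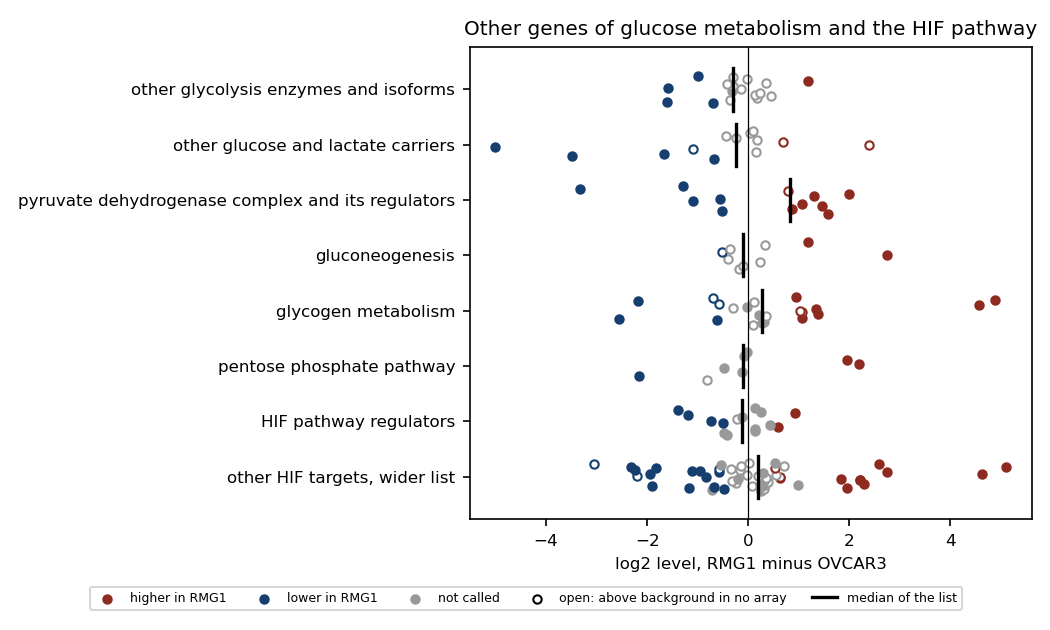
Difference in log2 level, RMG1 minus OVCAR3, of the measured genes of 8 further lists (1 point per gene; red higher and blue lower at an adjusted p under 0.05, grey not called, open for genes above background in no array), with the median of each list as a black bar. Points lie on both sides of 0 in every list, MET (4.62) and SLC2A12 (-5.00) among the outer ones, the position of a gene that a line holds at background is not a measured size, and the medians lie between -0.29 and 0.83.

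Knockdown of CPNE8 in RMG1 was read as the ratio of each siRNA array to siControl, and a gene counted as changed when its ratio was over 1.5 or under 0.66 with both siRNAs, the criterion of the study. Of the 30 members, 3 were lower and none was higher: HK2, SLC2A1 and VEGFA. Over all transcript probes 2.69% were lower and 2.56% higher, and over those above background in at least 1 RMG1 array 2.03% and 2.64%. Both ratios of a gene share the same single control array, so a low or high siControl value moves both. HK2 had levels of 7.45 with #A and 8.32 with #B, against 9.25 with siControl. These are log2 ratios of -1.80 and -0.93, and since #A was at background, its ratio was at most 0.392. SLC2A1 had levels of 13.24 with #A and 13.38 with #B, against 14.04 with siControl, ratios of 0.576 and 0.634. VEGFA had levels of 11.86 with #A and 11.80 with #B, against 12.53 with siControl, ratios of 0.630 and 0.604. Those for SLC2A1 with #B and VEGFA with #A lie close to the threshold, and with ratios over 2 or under 0.5 no member was called.

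Several HIF targets passed the ratio with 1 siRNA alone. P4HA1 had ratios of 0.597 with #A and 0.685 with #B, EGLN3 0.548 and 0.684, and PDK1 0.625 and 0.835. ADM had ratios of 0.598 and 0.821, and since #A was at background, its ratio there was at most 0.766. NDRG1 came close to the limit with #B alone, at 0.812 and 0.678. By #A alone 8 members were lower and 1, TPI1, was higher, and by #B alone 5 were lower. With 1 siRNA alone, 1517 to 1885 of the 21448 transcript probes were lower and 1325 to 1858 higher. The difference in shares was not tested. The member counts include values at background: HK2, ADM and PFKFB3 with #A and PFKL and PFKM with #B. The subunits of phosphofructokinase PFKL and PFKM stood above siControl with #A and below it with #B, at values near background. HIF1A, ENO1, GAPDH, LDHA, ALDOA and PGK1 had mean log2 ratios between -0.06 and 0.10. The median over the members was -0.07 with #A and -0.15 with #B, against 0.00 and -0.01 over all transcript probes.

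With limma, where the #A and #B pairs of both lines give the error with 2 residual degrees of freedom, no probe of 21448 was called for siCPNE8 at an adjusted p under 0.05, and 1181 had an unadjusted p under 0.05. HK2 and SLC2A1 were the members among these. That number of probes is close to what this cut-off passes when nothing changes, so a place among them is no support for a response. HK2 had an adjusted p of 0.859 from limma, with #A at background. SLC2A1 averaged -0.73 ± 0.10 on the log2 scale (SD over #A and #B, n = 2, adjusted p of 0.894 from limma) and VEGFA -0.70 ± 0.04 (adjusted p of 0.905). In the wider lists, 4 of 53 further HIF targets were lower and 3 higher by the ratio. Of all transcript probes, 2.69% were lower and 2.56% higher, and the difference in shares was not tested. Of the 53, 20 were above background in no array. EDN1, the vasoconstrictor endothelin 1, had log2 ratios of -3.42 and -1.53, P4HA2, a sister of P4HA1, of -0.61 and -0.94, AK4, a mitochondrial kinase, of -0.74 and -0.64, and STC1 of 1.23 and 0.92. TF, HMOX1 and TEK were called at values below background in all RMG1 arrays. Of the other lists of glucose metabolism and HIF regulation, MPC2 was higher, at 1.25 and 0.90, and PGAM2 and PFKFB2 were called below background.

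**Figure D5:**
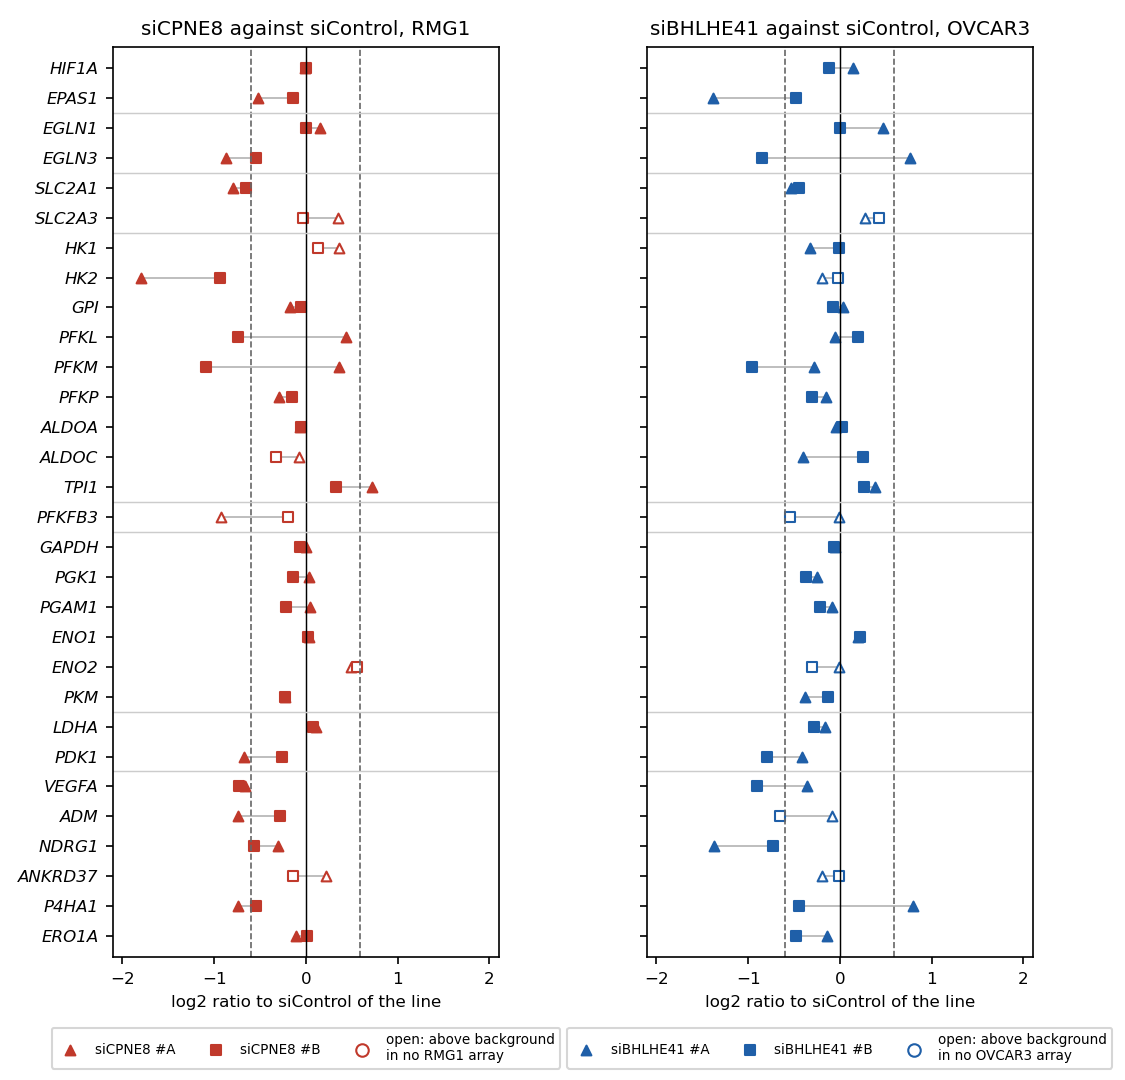
Log2 ratio of siRNA #A (triangles) and #B (squares) to siControl in that line for each measured member, siCPNE8 in RMG1 on the left and siBHLHE41 in OVCAR3 on the right; dashed lines are the ratios 0.66 and 1.5, and open symbols are genes above background in no array of that line. Both symbols lie left of the lower line for SLC2A1, HK2 and VEGFA in RMG1 and for NDRG1 in OVCAR3.

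Knockdown of BHLHE41 in OVCAR3 left 1 member lower and none higher by the same ratio, against 2.13% of all transcript probes lower and 3.09% higher (1.93% and 3.68% of those above background in OVCAR3). NDRG1 had levels of 12.61 with #A and 13.25 with #B, against 13.98 with siControl, ratios of 0.386 and 0.604. Both siRNAs stood below the control, #A by more, with an average of -1.05 ± 0.46 on the log2 scale (SD over #A and #B, n = 2) and an adjusted p of 0.945 from limma. EPAS1 had levels of 10.78 with #A and 11.69 with #B, against 12.16 with siControl. Its ratio of 0.383 passed with #A and that of 0.720 with #B did not. VEGFA had ratios of 0.782 and 0.534, PDK1 of 0.751 and 0.577 and SLC2A1 of 0.689 and 0.735, each short of the limit with at least 1 siRNA.

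The siRNAs against BHLHE41 parted on EGLN3 and P4HA1. EGLN3 had levels of 10.40 with #A and 8.78 with #B, against 9.63 with siControl, and P4HA1 of 12.18 with #A and 10.94 with #B, against 11.39 with siControl. In both genes #A stood above the control and #B below it. By #A alone 2 members were lower and 2 higher, and by #B alone 6 were lower. The 6 include ADM, which was above background in no OVCAR3 array. With 1 siRNA alone, 1414 to 1507 of the 21448 transcript probes were lower and 1667 to 1691 higher. The difference in shares was not tested. The median log2 ratio of the members was -0.11 with #A and -0.25 with #B, against -0.01 with each over all transcript probes. The 7 members with a CACGTG before a start, which BHLHE41 could bind by its known preference, had mean log2 ratios between -0.28 and -0.01, and none was called. In OVCAR3, HK2, PFKFB3 and ANKRD37 were above background in no array and ALDOC in 1, which leaves ALDOA, GAPDH and LDHA with a level measured throughout. No probe was called by limma at an adjusted p under 0.05, 1099 had an unadjusted p under 0.05, and NDRG1 was the only member among them. Here too the number of probes is close to what the cut-off passes when nothing changes.

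Among the 53 further HIF targets, 5 were lower and 3 higher in OVCAR3 with siBHLHE41. Of all transcript probes, 2.13% were lower and 3.09% higher, and the difference in shares was not tested. The nuclear receptor RORA had log2 ratios of -1.73 and -0.81 and PLIN2 of -1.17 and -0.72. RAB20 was called below background in all OVCAR3 arrays. DDIT4, an inhibitor of mTOR signalling, and STC2, a secreted glycoprotein, were above background with siControl alone, so their ratios are bounds, which for DDIT4 do not reach the limit with either siRNA and for STC2 reach it with #B (at most 0.652). BHLHE40, the close relative of BHLHE41, was higher at 0.86 and 1.07, PNRC1, a nuclear receptor coactivator, at 0.94 and 0.97, and CCNG2, a cyclin linked to growth arrest, at 0.59 and 0.64. DLAT was called lower but was above background with siControl alone, and its bounds do not reach the limit, while HKDC1 was called below background.

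The knockdown responses, which have different targets in different lines, were set against each other in the fit of 4 groups. No probe differed at an adjusted p under 0.05 by limma, 921 had an unadjusted p under 0.05, and none of these was a member. NDRG1 had -0.43 with siCPNE8 and -1.05 with siBHLHE41, SLC2A1 -0.73 and -0.49, VEGFA -0.70 and -0.63, and EPAS1 -0.33 and -0.93. None of these responses was shown to be particular to a line.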

How the data were processed

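Total RNA of 6 transfected cultures was hybridised to 1-colour Affymetrix Clariom S arrays. The authors deposited log2 values made with Affymetrix Expression Console by RMA, per the submitters' processing notes. RMA subtracts a modelled background, equalises the distributions of the arrays and condenses the features of a transcript into 1 value. The sources used here give no tool versions. The deposited values were used without further normalization. The 2903 control probes were left out, which left 21448 transcript probes; 17709 carry 1 symbol in the array annotation and 3739 are unnamed here. Unused columns of per-sample values numbered 0. Background was set per array at the 95th percentile over 612 negative controls. "At least" folds set the bright line's mean against the higher of the other line's own value and its lowest signal above background, and a ratio "at most" does the same for 1 array.

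Lines were compared with limma 3.58.1 in R 4.3.3 (lmFit and eBayes, line as the only term, 4 residual degrees of freedom) and knockdowns by ratio and in 1 limma fit of 4 groups (2 residual degrees of freedom), with Benjamini-Hochberg adjustment over all transcript probes. The sources do not state separate cultures, so p-values measure the spread between arrays, which here includes the knockdowns. The fits were tested on simulated data. Members, lists (211 genes in 14 lists, 195 measured), tests and motifs were chosen with earlier results of these data known. Genes named are all members, and of each list the up to 4 genes above background with the largest difference between lines and those called in a knockdown. Promoters came from RefSeq (GRCh38.p14). Alternatives were quantile normalization, centring, filters on dim probes, control probes kept, a variance trend, other thresholds, other arrays for the contrast and each array left out.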

Additional observations from a re-analysis of the deposited data

How the results depend on the processing

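Over the members, 621 of 674 single values under alternatives kept their direction and side of the threshold or, for knockdown ratios, which have no such test, moved by less than the SD of #A and #B. HIF1A changed sign between RMG1 and OVCAR3 with arrays centred (0.050), and with 1 array left out it ran from -0.081 to 0.047; neither came near the threshold. Members higher in RMG1 numbered 7 between siControl arrays, and members lower 3 there, 8 without dim probes and 10 with a variance trend. Probes higher and lower numbered 1610 and 1853 between siControl arrays and 2302 and 2609 at an absolute difference of at least 1. With ratios over 2 or under 0.5, members lower numbered 0 for siCPNE8 and 0 for siBHLHE41, and probes higher and lower 93 and 91 for siCPNE8 and 106 and 73 for siBHLHE41. At the main limits of 1.5 and 0.66, probes higher and lower numbered 549 and 576 for siCPNE8 and 662 and 457 for siBHLHE41. Without dim probes, at those main limits, they numbered 242 and 186 for siCPNE8 and 329 and 173 for siBHLHE41. With 1 array left out, members higher in RMG1 numbered 8 to 11 and lower 4 to 6, and probes higher 3271 to 3554 and lower 3557 to 3759. With 1 siRNA left out, which drops the need for both to pass, members higher and lower numbered 0 to 1 and 5 to 8 for siCPNE8 and 0 to 2 and 2 to 6 for siBHLHE41, and probes higher and lower 1325 to 1858 and 1517 to 1885 for siCPNE8 and 1667 to 1691 and 1414 to 1507 for siBHLHE41. Some alternatives test fewer probes or arrays, and the cause of the shifts was not tested. No paired analysis was possible because #A and #B name different siRNAs in each line and siControl has 1 array per line. With 6 arrays and many members near background, differences of dim genes are bounds at best.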
